A study of Sus scrofa with 32 samples.

Results

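Steroid-converting enzymes set how much active hormone a cell sees. HSD17B2 oxidizes estradiol to the weaker estrone and HSD17B1 catalyzes the reverse step, SULT1E1 couples estrogens to sulfate and STS removes it, and SRD5A1 reduces the A ring of progesterone and testosterone. HSD11B1 regenerates cortisol from cortisone, and HSD11B2 inactivates cortisol. HSD17B4 and HSD17B12 carry the names of the same family but are best known for the peroxisomal breakdown and the elongation of fatty acids. In pigs the conceptuses themselves secrete estrogens around attachment, so the enzymes of the endometrium lie between the embryonic signal and its maternal receptors.

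The 9 genes were chosen by name, with earlier results of these data known, and matched by pig gene symbol to 9 of the 30185 NCBI genes in the count tables. They were followed in 4 compartments cut from frozen sections by laser, namely the epithelium of the lumen (LE), that of the glands (GE), the vessels (BV) and the stroma (S), of 4 pregnant and 4 cyclic (nonpregnant) gilts on Day 14, with 1 library per gilt and compartment. All 8 gilts had been synchronized with eCG and hCG. The pregnant gilts were inseminated with semen of a German Landrace boar and the cyclic gilts with the supernatant of spun semen from the same boar, and pregnant endometrium was taken at the attachment zones after the conceptus had been removed. Gilts are named here by C (cyclic) or P (pregnant) and the number in their labels. There were 31 libraries in all, with n = 4 in each group except pregnant GE (n = 3, where the count tables hold no library of gilt P41).

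Library totals ranged from 2415216 to 7081556 counts (median 3624021), and 3 counts in a library corresponded to between 0.424 and 1.24 CPM. Levels are given in CPM, which is counts scaled to a common library size, on a scale shared by all 31 libraries, and in CPM per kb of exon where genes are compared with each other. The captures were checked against marker lists. Epithelial markers summed to between 1357 and 3150 CPM in the LE and GE libraries and to between 2.54 and 421 CPM in BV and S, gland markers to between 88.0 and 286 CPM in GE and at most 34.9 CPM elsewhere, and endothelial markers to between 1479 and 2986 CPM in BV, which overlapped with S (539 to 2740 CPM) but not with LE or GE (at most 1013 CPM). LE libraries also held fibroblast markers at 4077 to 16433 CPM and GE libraries at 2863 to 7494 CPM, against 36438 to 105783 CPM in S. BV libraries held them at 24959 to 90659 CPM, a range that overlapped with S. Smooth muscle markers summed to between 717 and 16025 CPM in BV, against at most 864 CPM elsewhere. The summed conceptus markers reached at most 10.8 CPM in any library, with CYP17A1 at 0 counts in all 31. In captured tissue a lower value can stand for fewer cells of a type or for less RNA per cell, and these cannot be told apart.

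Of the 9 enzymes, 7 were in the authors' filtered tables of detectable genes, with all 7 detectable in LE, 6 in S and 5 each in GE and BV. HSD17B2 was detectable only in LE and SRD5A1 only in LE and S, whereas HSD11B1, HSD11B2, HSD17B4, HSD17B12 and SULT1E1 were detectable in all 4 compartments. HSD17B1 and STS were detectable in none. HSD17B2 and SRD5A1 were high in LE and low elsewhere, HSD11B1 was higher in BV and S than in either epithelium, and no enzyme passed edgeR's test of pregnancy in any compartment.

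**Figure D1:**
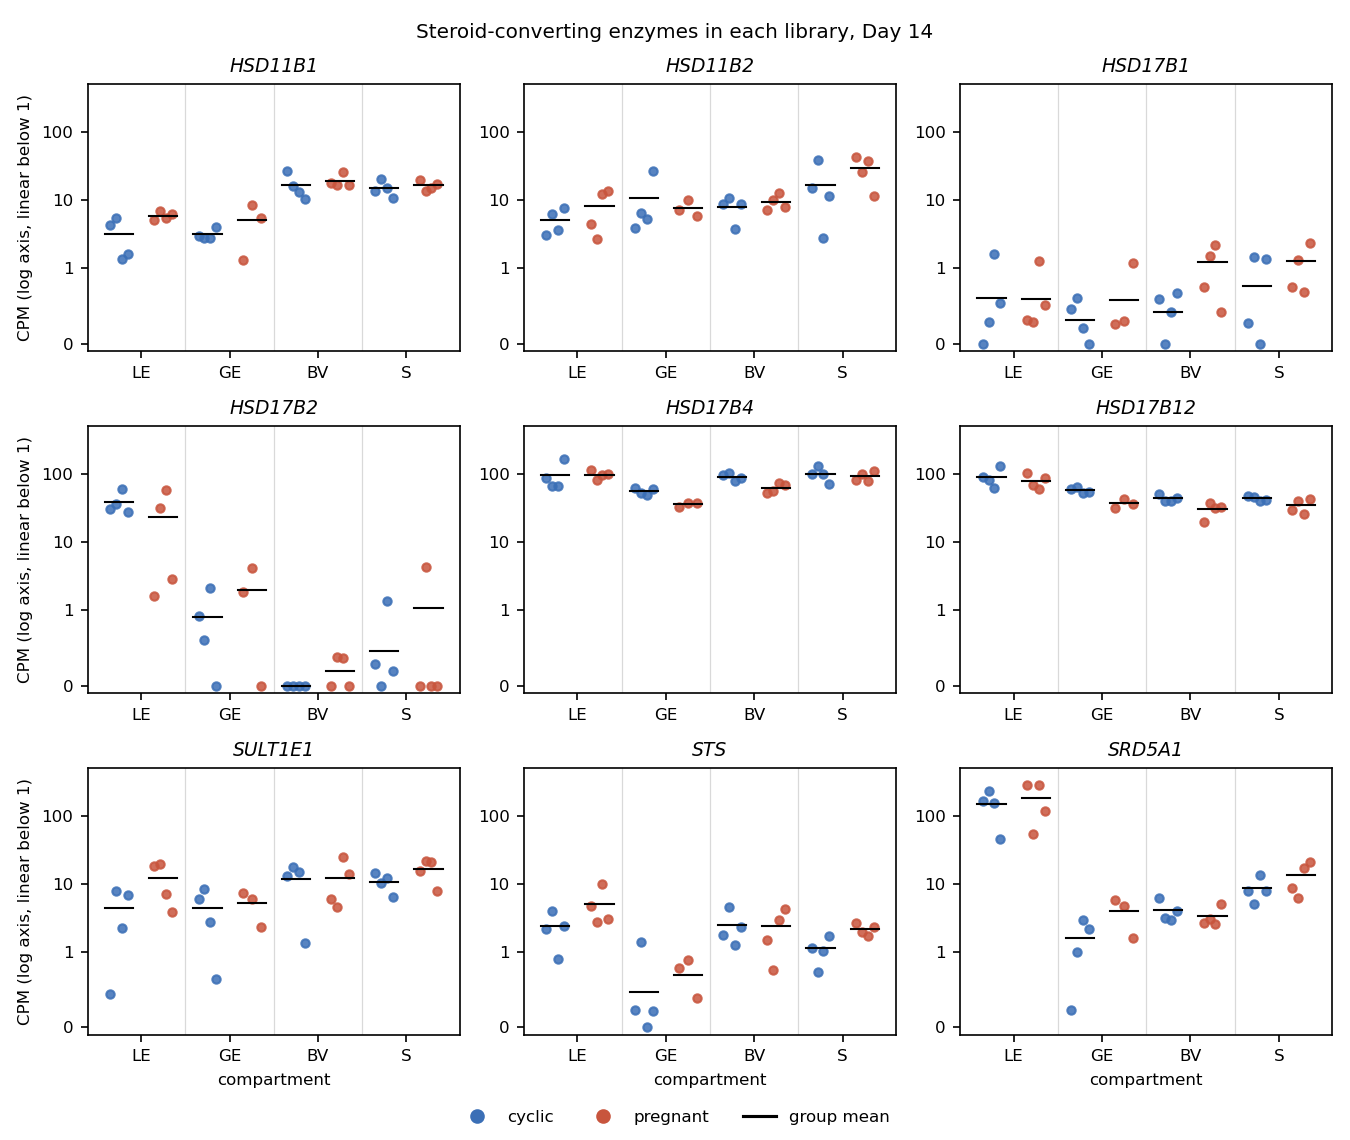
Level of each of the 9 enzymes in CPM (log axis, linear below 1 CPM) in LE, GE, BV and S, with 1 point per library, cyclic gilts in blue, pregnant gilts in red and group means as black lines. SRD5A1 lies at 45.5 CPM or above in all 8 LE libraries and at 20.9 CPM or below in all others, and HSD17B2 in LE spans 1.58 to 60.7 CPM.

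SRD5A1 (NCBI gene 100518046, chr16:75309830-75335438, minus strand, Sscrofa11.1) and HSD17B2 (NCBI gene 100312973, chr6:6296429-6360434, minus strand) were the enzymes with the largest differences between compartments. To show the DNA in front of these LE genes, the 250 bases before each annotated gene start are printed from the Sscrofa11.1 genome in the direction of transcription, with every CpG in capitals. The windows are chr16:75335439-75335688 for SRD5A1 and chr6:6360435-6360684 for HSD17B2.
SRD5A1: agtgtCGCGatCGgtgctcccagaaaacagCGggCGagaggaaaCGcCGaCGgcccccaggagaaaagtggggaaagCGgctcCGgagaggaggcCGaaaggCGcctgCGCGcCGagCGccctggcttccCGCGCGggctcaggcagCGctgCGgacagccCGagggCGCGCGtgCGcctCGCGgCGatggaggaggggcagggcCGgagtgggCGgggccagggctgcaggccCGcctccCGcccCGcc
HSD17B2: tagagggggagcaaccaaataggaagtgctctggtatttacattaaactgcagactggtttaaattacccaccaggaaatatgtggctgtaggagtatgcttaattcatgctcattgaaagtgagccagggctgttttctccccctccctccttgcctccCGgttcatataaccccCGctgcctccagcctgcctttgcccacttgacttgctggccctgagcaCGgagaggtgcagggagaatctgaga
The SRD5A1 window held 34 CpGs at 75.6% GC, and the HSD17B2 window held 3 CpGs at 51.2% GC. Over the windows of 19545 protein-coding genes the median was 12 CpGs, with quartiles of 4 and 22, so the pair lay on opposite sides of the middle range. The letters GGGCGG of the GC box (either strand) occurred 2 times in the SRD5A1 window and not in that of HSD17B2, and 45.9% of all windows held them. Neither window held GGTCA, the half-site of the estrogen receptor, or AGAACA, that of the glucocorticoid and progesterone receptors (either strand), which 33% and 10.3% of all windows held.

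SRD5A1 was an LE gene. In cyclic LE it had 165, 229, 154 and 45.5 CPM in gilts C40, C42, C78 and C128, and in pregnant LE 281, 54.1, 280 and 119 CPM in gilts P39, P41, P43 and P139. Cyclic gilt C128 and pregnant gilt P41 were the low libraries, and the groups overlapped over nearly their whole range. All 23 libraries of the other compartments lay lower, with 0.229 to 5.74 CPM in GE, 2.58 to 6.26 CPM in BV and 5.08 to 20.9 CPM in S. In a joint quasi-likelihood fit (edgeR) of all 31 libraries, with the gilt as a block and both states averaged, the log2 level of SRD5A1 in LE exceeded that in GE by 6.08 (SE 0.44, adjusted p = 1.5e-09), that in BV by 5.33 (SE 0.40, adjusted p = 1.01e-09) and that in S by 3.82 (SE 0.36, adjusted p = 1.7e-08). Among the low compartments, the level in S exceeded that in GE (log2 difference GE minus S -2.26, SE 0.43, adjusted p = 8.76e-05). The S libraries also held epithelial markers, at sums of 10.2 to 421 CPM, and their part in the SRD5A1 values of S was not tested. S and BV differed by 1.51 in the fit but did not pass the 1% false discovery rate (BV minus S -1.51, adjusted p = 0.0163), and GE and BV were not told apart (GE minus BV -0.75, 95% interval from -1.71 to 0.21).

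HSD17B2, the estradiol-inactivating enzyme, exceeded 5 CPM only in LE libraries, 6 of 8, and varied among the pregnant gilts. In cyclic LE it had 30.6, 36.1, 60.7 and 27.7 CPM in gilts C40, C42, C78 and C128. In pregnant LE it had 1.58 and 2.81 CPM in gilts P39 and P139, but 31.3 and 58.6 CPM in gilts P41 and P43. The latter pair lay within the cyclic range and the former pair below all cyclic libraries. The low and high libraries of SRD5A1 were not the same: gilt P39 was the highest and gilt P41 the lowest pregnant library for that gene. The summed epithelial markers of the pregnant LE libraries spanned 2158 to 2424 CPM, and their part in the spread of HSD17B2 was not tested.

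Outside LE, HSD17B2 had between 0 and 4.16 CPM in GE and between 0 and 4.24 CPM in S, with the highest S value in pregnant gilt P41 and 4 of 8 S libraries at 0 counts. Gilt P41 also had the highest sum of epithelial markers in S (421 CPM), and their part in that HSD17B2 value was not tested. In BV it had 2 counts over 8 libraries and none in the 4 cyclic ones, where 3 counts would be 0.245 CPM. The pooled level in cyclic LE was at least 160-fold higher than this limit. Over both states, the ratio of pooled LE to BV levels was 357, with an exact 95% binomial interval from 98.6 to 2954 that covers counting error only. The joint fit held the genes detectable in at least 1 compartment, and HSD17B2 entered it only through LE, where it was high. Its p-values against LE are therefore not independent support for a high level there. That fit placed LE above GE (log2 difference 4.05, SE 0.56, adjusted p = 9.73e-06) and above S (5.44, SE 0.56, adjusted p = 1.93e-07). LE against BV was called as well, with an adjusted p of 5.91e-08 in the quasi-likelihood fit. GE against BV was called too (adjusted p = 0.00208 in edgeR), on 38 counts against 2, but not without the block (adjusted p = 0.0368) or without gilt C78 (adjusted p = 0.0104).

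The glucocorticoid pair was distributed differently. HSD11B1 (NCBI gene 397480, chr9:133231451-133278396, minus strand), which makes active cortisol, was about 4-fold lower in the epithelia than in BV and S. It shares its locus with C9H1orf74 on the other strand, but 0 of the 1831 exon bases of HSD11B1 are exonic in that gene. In LE the level was 4.35, 5.39, 1.36 and 1.60 CPM in cyclic gilts C40, C42, C78 and C128 and 5.07, 6.82, 5.42 and 6.14 CPM in pregnant gilts P39, P41, P43 and P139. The GE libraries had between 1.30 and 8.32 CPM, BV between 10.4 and 26.5 CPM and S between 10.8 and 20.3 CPM, so that the epithelial and the other libraries did not overlap. The log2 differences were -2.05 (SE 0.27, adjusted p = 1.3e-06) for LE minus BV, -1.90 (SE 0.27, adjusted p = 3.29e-06) for LE minus S, -2.16 (SE 0.28, adjusted p = 1e-06) for GE minus BV and -2.01 (SE 0.28, adjusted p = 2.26e-06) for GE minus S in the quasi-likelihood fit. LE and GE (0.12, 95% interval from -0.47 to 0.70) and BV and S (0.15, 95% interval from -0.33 to 0.63) were not told apart.

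HSD11B2 (NCBI gene 396948, chr6:28084087-28089256, plus strand), the cortisol-inactivating enzyme, was highest in S. Cyclic S had 15.1, 38.4, 2.73 and 11.3 CPM in gilts C40, C42, C78 and C128, and pregnant S 43.1, 26.1, 36.9 and 11.6 CPM in gilts P39, P41, P43 and P139. The groups overlapped, with cyclic gilt C78 far below the rest. In LE the range was 2.70 to 13.8 CPM and in BV 3.81 to 12.6 CPM. GE lay between 3.90 and 10.1 CPM in 6 of its 7 libraries and at 26.7 CPM in cyclic gilt C128. Levels in LE and GE were below those in S by -1.70 (SE 0.40, adjusted p = 0.00103) and -1.34 (SE 0.42, adjusted p = 0.00724) on the log2 scale in the quasi-likelihood fit. The GE call was lost when gilt P39, P41, P43, C40 or C42 was left out (adjusted p of up to 0.0526, without gilt C42) or without the block (adjusted p = 0.0156). BV minus S was -1.25 (adjusted p = 0.0372).

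Set against each other per kb of exon within a library, HSD11B2 exceeded HSD11B1 in 7 of 7 GE and 6 of 8 LE libraries. In BV it did so in 1 of 8 and in S in 6 of 8, with ratios from 0.384 to 1.11 in BV and from 0.237 to 3.27 in S. Pooled over libraries, the ratio was 4.43 in cyclic and 1.97 in pregnant GE, 2.10 in cyclic and 1.57 in pregnant LE, 1.24 in cyclic and 2.19 in pregnant S, and 0.648 and 0.641 in cyclic and pregnant BV. Cyclic gilt C128 had the highest ratio in GE, at 8.62, and without it the pooled ratio of cyclic GE was 2.44, a leave-out added after the data were seen. In the same way, the pooled ratio was 2.46 in pregnant LE without gilt P41 and 0.878 in cyclic S without gilt C42. These ratios are a description of RNA levels, since each rests on 5 to 124 counts per gene and library.

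HSD17B4 (NCBI gene 397574, chr2:123313445-123401386, plus strand) and HSD17B12 (NCBI gene 100312972, chr2:18461487-18611761, minus strand) were the most evenly expressed members, at 19.6 CPM or more in every library. HSD17B4, the peroxisomal enzyme, was lowest in GE. Its level there was below that in LE (LE minus GE 1.12, SE 0.17, adjusted p = 1.38e-05), BV (GE minus BV -0.78, SE 0.17, adjusted p = 4.04e-04) and S (GE minus S -1.13, SE 0.17, adjusted p = 5.88e-06) on the log2 scale in the quasi-likelihood fit. The levels in LE and S differed by -0.01 (95% interval from -0.32 to 0.30). HSD17B12, an enzyme of fatty acid elongation, was highest in LE, by 0.85 over GE (SE 0.15, adjusted p = 9.08e-05), by 1.23 over BV (SE 0.15, adjusted p = 4.78e-07) and by 1.12 over S (SE 0.15, adjusted p = 1.43e-06), and GE, BV and S were not told apart at 1%.

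Within a library, HSD17B12 exceeded HSD17B4 per kb of exon in all 15 epithelial libraries, with ratios from 1.03 to 2.06. In BV and S it was the lower one in 15 of 16 libraries, with ratios from 0.566 to 1.11, and the exception was pregnant BV of gilt P41. The plot of the paired ratios shows this change of order between epithelium and the other compartments. It is a description, and the difference of the ratio was not tested.

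**Figure D2:**
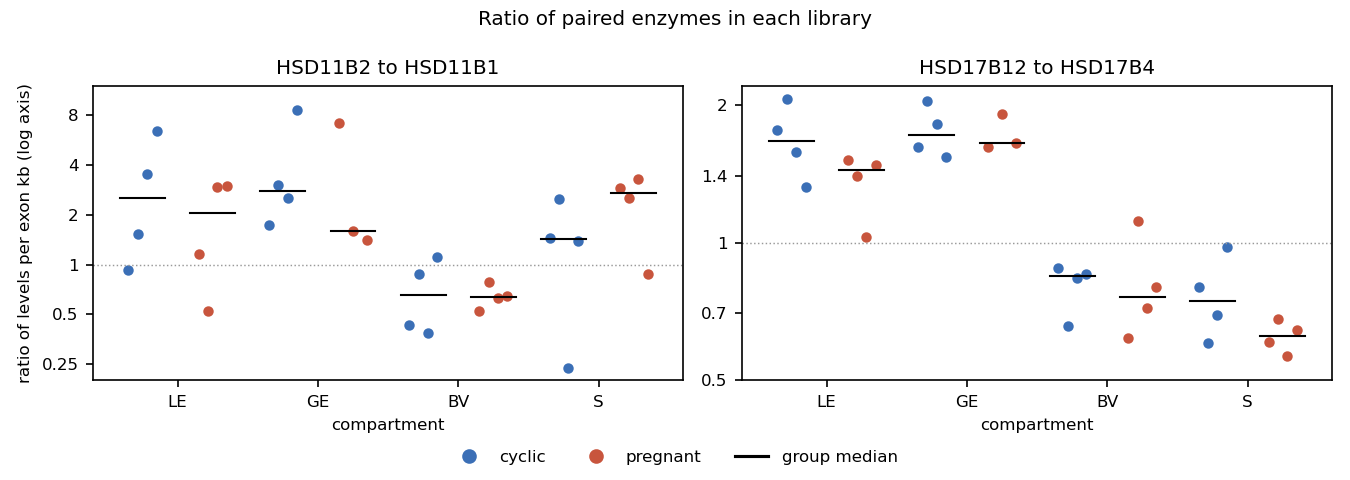
Ratio of HSD11B2 to HSD11B1 (left) and of HSD17B12 to HSD17B4 (right) per kb of exon on a log axis, with 1 point per library, cyclic gilts in blue, pregnant gilts in red and group medians as black lines. The dotted line marks equal levels, and HSD17B12 lies above it in all 15 LE and GE libraries and below it in 15 of 16 BV and S libraries.

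The sulfation pair was low everywhere. SULT1E1 (NCBI gene 397052, chr8:66811536-66838181, minus strand), the estrogen sulfotransferase, had median levels of 6.97 CPM in LE, 5.95 CPM in GE, 13.4 CPM in BV and 13.2 CPM in S. No pair of compartments passed 1%. The nearest was GE minus S (log2 difference -1.54, SE 0.53, adjusted p = 0.0132), and BV and S differed by -0.19 (95% interval from -1.13 to 0.75). STS (NCBI gene 448816, chrX:3926027-4076900, plus strand), the sulfatase, had 0 to 9.88 CPM and at most 31 counts in a library, with the highest value in pregnant LE of gilt P43. STS is annotated at 2 loci, on chromosomes X and Y, so its counts are uncertain. HSD17B1 (NCBI gene 100147712, chr12:20269468-20271349, minus strand), the estradiol-forming enzyme, had 0 to 10 counts per library and at most 2.33 CPM, and 1 library of each compartment had 0 counts.

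Over the 6 pairs of compartments, 20 of 42 tests of the 7 detectable enzymes passed a false discovery rate of 1%. Of the 13887 genes tested, 41.4% were called for LE against GE (4 of 7 members), 49.2% for LE against BV (4 of 7), 50.6% for LE against S (5 of 7), 58.3% for GE against BV (3 of 7), 59.3% for GE against S (4 of 7) and 7.19% for BV against S (0 of 7, with 4 at an unadjusted p under 0.05). The members' shares lay near these backgrounds, so the count of calls is not a result about the enzymes, and the sizes of the differences are given above for each gene. The median log2 difference of all genes was 0.13 for LE minus GE and between -0.03 and 0.05 for the other pairs.

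**Figure D3:**
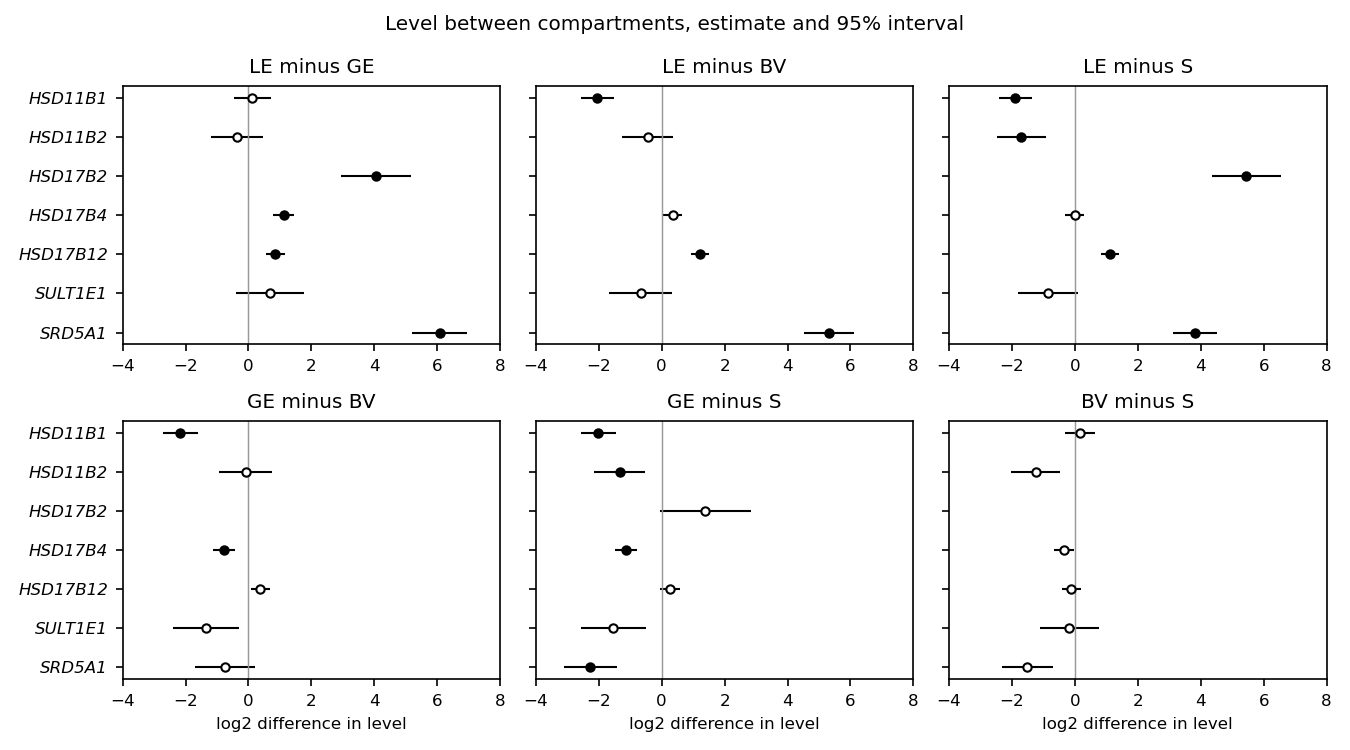
Log2 difference in level between compartments, averaged over cyclic and pregnant gilts, for the 7 detectable enzymes with approximate 95% intervals, filled where called at a false discovery rate of 1%. HSD17B2 is left out of the BV panels, where it had 2 counts in 8 libraries. SRD5A1 reaches 6.08 in LE minus GE, and HSD11B1 lies near -2 in the 4 panels that set an epithelium against BV or S.

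Ranked per kb of exon, the leading members changed with the compartment. In cyclic LE, HSD17B12 (45.1 ± 14.2 CPM per kb, SD, n = 4), SRD5A1 (43.9 ± 22.6), HSD17B2 (33.2 ± 12.9) and HSD17B4 (28.3 ± 13.9) had neighbouring values that differed by less than their SD, and HSD11B2 followed at 3.72 ± 1.59. Pregnant LE was led by SRD5A1 (54.2 ± 33.97 CPM per kb, SD, n = 4), with HSD17B2 behind HSD17B12 and HSD17B4 at 20.2 ± 23.2. In GE the order was HSD17B12, HSD17B4 and HSD11B2 in both states. HSD17B4 led in BV and S of both states, and HSD11B2 was second in pregnant S (21.2 ± 9.95 CPM per kb, SD, n = 4) and in the place after HSD17B12 in cyclic S (12.2 ± 11.02).

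The question of the study was how the endometrium at attachment differs from that of the cycle in each compartment. Pregnant and cyclic libraries were compared on the filtered counts with edgeR's quasi-likelihood test. The rule for a call in LE was a false discovery rate of 1%, and the highest unadjusted p that met it there, 0.000328, served as the limit for GE, BV and S. No enzyme was called. The counts were 0 of 7 members in LE (3.32% of all 12002 genes tested were called), 0 of 5 in GE (0.748% of 11905), 0 of 5 in BV (1.86% of 11096) and 0 of 6 in S (0.293% of 11935). An unadjusted p under 0.05 was found for 0 members in LE (26.9% of all genes), 2 in GE (23%), 2 in BV (28.5%) and 0 in S (14.5%). DESeq2 called 1 member in GE (6.64% of all genes) and 0 in LE (11.2%), BV (8.5%) and S (2.6%). The robust GLM of edgeR, the method that the paper used, called 0 members in LE (11.8% of all genes), GE (6.66%), BV (11%) and S (3.16%). The quasi-likelihood test thus called a smaller share of all genes than the paper's method in every compartment. Pregnant and cyclic libraries were without overlap for 0 members in LE (19.4% of all genes in either direction) and S (8.81%). Groups of 3 or 4 gilts leave wide intervals, and a change that missed the threshold is not shown to be absent.

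HSD17B4 and HSD17B12 were the members with pregnant libraries below all cyclic ones, both in GE and in BV. In GE, HSD17B4 had 62.6, 52.1, 48.3 and 59.3 CPM in cyclic gilts C40, C42, C78 and C128 and 32.1, 37.8 and 37.2 CPM in pregnant gilts P39, P43 and P139. The log2 fold change was -0.65 (SE 0.15), a 1.57-fold lower level, with an adjusted p of 0.0704 in the quasi-likelihood test and 0.0119 in DESeq2, which called it. HSD17B12 had 60.6, 63.3, 52.3 and 54.4 CPM in the same cyclic libraries and 31.0, 43.1 and 36.6 CPM in the pregnant ones (log2 fold change -0.65, SE 0.17, adjusted p = 0.0829 in edgeR). Every pregnant library was lower than every cyclic one for both genes, a pattern that 11.3% of all genes in GE showed in this direction. Leukocyte markers summed to 72.5 to 115 CPM in pregnant and 20.1 to 27.5 CPM in cyclic GE, with 3 of 6 markers higher without overlap, and epithelial markers to 1357 to 1587 CPM and 1436 to 1717 CPM, with 3 of 6 lower and 1 higher without overlap. Gland markers summed to 88.0 to 118 CPM in pregnant and 97.5 to 286 CPM in cyclic GE, with 1 of 3 lower without overlap. Of the fibroblast markers, 2 of 6 were higher without overlap in pregnant GE, but their sums overlapped (3602 to 6529 CPM in pregnant and 2863 to 7494 CPM in cyclic GE). The part of all these markers in the values of HSD17B4 and HSD17B12 was not tested.

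In BV, HSD17B4 had 95.4, 101, 79.5 and 88.0 CPM in cyclic gilts C40, C42, C78 and C128 and 53.2, 55.7, 72.4 and 68.6 CPM in pregnant gilts P39, P41, P43 and P139 (log2 fold change -0.53, SE 0.14, adjusted p = 0.0506 in the quasi-likelihood test). HSD17B12 had 50.1, 39.8, 39.7 and 44.8 CPM in the cyclic and 19.6, 37.0, 31.0 and 32.8 CPM in the pregnant libraries (log2 fold change -0.52, SE 0.20, adjusted p = 0.12 in edgeR). Both genes were again without overlap, which held for 9.54% of all genes in BV in this direction. Pregnant BV held more epithelial RNA, with 6 of 6 epithelial markers higher without overlap and sums of 148 to 270 CPM against 2.54 to 45.0 CPM in cyclic BV, while smooth muscle markers summed to 717 to 6038 CPM against 4984 to 16025 CPM. Their part in the values of HSD17B4 and HSD17B12 was not tested.

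In LE and S the same pair overlapped between the states. HSD17B4 in LE ranged from 66.3 to 166 CPM in cyclic and from 82.1 to 114 CPM in pregnant gilts (log2 fold change 0.04, SE 0.29), and in S from 71.8 to 129 CPM and from 77.3 to 111 CPM (-0.10, SE 0.20). HSD17B12 had log2 fold changes of -0.19 (SE 0.25) in LE and -0.34 (SE 0.18) in S. That the change of HSD17B4 differed between LE and GE was tested by the interaction of state and compartment. The difference was 0.73 (LE minus GE, SE 0.34) with an unadjusted p of 0.0423 and an adjusted p of 0.279 in the joint edgeR fit, so it did not pass.

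**Figure D4:**
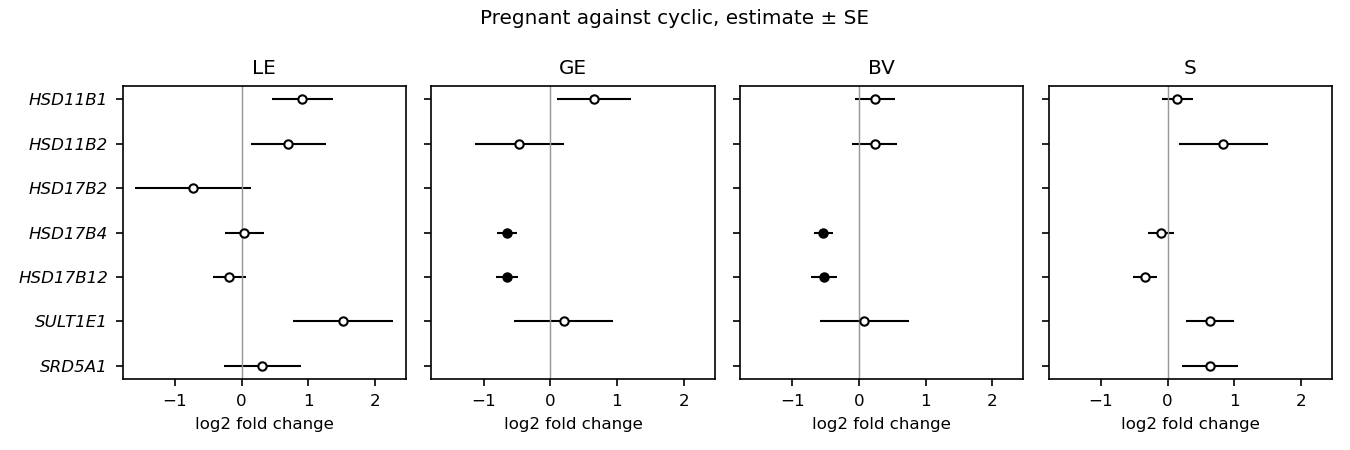
Log2 fold change of pregnant against cyclic gilts with its SE (horizontal bars) for each enzyme detectable in LE, GE, BV and S, with filled points where the pregnant and cyclic libraries do not overlap. The 4 filled points are HSD17B4 and HSD17B12 in GE (both -0.65) and in BV (-0.53 and -0.52), and no enzyme was called.

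The LE enzymes SRD5A1 and HSD17B2 overlapped between the states, as did SULT1E1. The mean of SRD5A1 was 149 ± 76.3 CPM for cyclic and 183 ± 115 CPM for pregnant gilts in LE (SD, n = 4 each, log2 fold change 0.31, SE 0.58). HSD17B2 averaged 38.8 ± 15.0 CPM in the cyclic group and 23.6 ± 27.1 CPM in the pregnant group (log2 fold change -0.73, SE 0.86, adjusted p = 0.635 in edgeR). This value moved with single libraries, from -1.66 without pregnant gilt P43 to -0.35 without pregnant gilt P39. SULT1E1 in LE had 0.435, 7.95, 2.26 and 6.92 CPM in cyclic gilts C40, C42, C78 and C128 and 18.4, 19.8, 7.01 and 3.84 CPM in pregnant gilts P39, P41, P43 and P139. Gilts P39 and P41 lay above all cyclic libraries and the other two within their range, and the log2 fold change of 1.52 (SE 0.75) had an adjusted p of 0.229 in edgeR. In GE, BV and S the log2 fold changes of SULT1E1 were 0.20 (SE 0.74), 0.08 (SE 0.67) and 0.63 (SE 0.36).

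The glucocorticoid enzymes showed a like spread. HSD11B1 in LE had a mean of 3.17 ± 2.01 CPM in cyclic and 5.86 ± 0.781 CPM in pregnant gilts (SD, n = 4 each), with a log2 fold change of 0.91 (SE 0.45, adjusted p = 0.233 in edgeR), and only cyclic gilt C42 reached into the pregnant range. In GE it was 0.66 (SE 0.55), in BV 0.23 (SE 0.30) and in S 0.15 (SE 0.23). HSD11B2 had log2 fold changes of 0.70 (SE 0.56) in LE, 0.23 (SE 0.33) in BV and 0.84 (SE 0.66) in S, the last being 1.64 without cyclic gilt C42. In GE its value of -0.47 (SE 0.67) rested on cyclic gilt C128, and without that library it was 0.52.

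Members below the authors' filter in a compartment were tested with all genes that had at least 1 count. None of these 13 gene and compartment pairs was called by the quasi-likelihood test, and none had an unadjusted p under 0.05. STS in LE had a log2 fold change of 1.11 (SE 0.56, adjusted p = 0.338 in edgeR), with 2.17, 3.97, 0.906 and 2.40 CPM in cyclic gilts C40, C42, C78 and C128 and 4.75, 2.70, 9.88 and 3.07 CPM in pregnant gilts P39, P41, P43 and P139. HSD17B1 in BV had a log2 fold change of 1.48 (SE 0.91) on 5 counts in cyclic and 13 counts in pregnant libraries.

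Whether pregnancy acted differently on an enzyme in different compartments was tested for the 6 pairs of compartments in the joint fit. In each pair 0 of 7 members were called. Of all 13887 genes, 0% were called for BV against S, 0.0576% for GE against S, 0.0792% for GE against BV, 0.85% for LE against S and 2.3% for LE against BV. The interaction over all 4 compartments called 0 of 7 members and 1.94% of all genes. In the LE against GE pair (1.02% of all genes called), 2 members had an unadjusted p under 0.05, namely HSD17B4 and HSD17B2. The difference for HSD17B2 was -3.01 (SE 1.11, adjusted p = 0.158 in edgeR) and rested on 38 counts in GE. It was -1.73 without the gilt as a block (adjusted p = 0.697 in edgeR), -1.95 without gilt P39 and -4.19 without gilt P43. No member had such a p in the other 5 pairs.

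The wider steroid pathway was taken from a list in 7 groups, chosen with earlier results of these data known. Listed names without a single matching pig gene symbol were not examined. These were HSD3B, CYP21, CYP11B1, HSD17B6, HSD17B11, AKR1C1, AKR1C4, SRD5A3, SULT1A1, SULT1B1, SULT1C2, SULT1C4, CYP1B1 and CYP7B1. Of the detectable list genes, the quasi-likelihood test called 1 of 31 in LE (3.32% of all genes) and 2 of 24 in BV (1.86%). It called 1 of 28 in S (0.293%) and 0 of 29 in GE (0.748%). The called genes were ABCG2 in LE, HSD17B7 and PAPSS1 in BV and SLC35B3 in S. An unadjusted p under 0.05 was found for 5 of 28 list genes in S (14.5% of all genes), 7 of 24 in BV (28.5%), 9 of 29 in GE (23%) and 7 of 31 in LE (26.9%). The other tools called as many genes of the list or more, with DESeq2 at 1 in S (2.6% of all genes), 3 in BV (8.5%), 3 in GE (6.64%) and 4 in LE (11.2%), and the robust GLM at 2 in S (3.16%), 5 in BV (11%), 3 in GE (6.66%) and 4 in LE (11.8%). The median log2 fold change of the list was -0.07 (LE), -0.04 (GE), 0.00 (BV) and -0.05 (S), beside -0.01, -0.01, 0.00 and 0.00 for all genes tested.

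ABCG2, an efflux pump whose substrates include estrogen sulfates, fell in LE. It had 295, 392, 252 and 550 CPM in cyclic gilts C40, C42, C78 and C128 and 62.1, 66.6, 55.7 and 25.6 CPM in pregnant gilts P39, P41, P43 and P139. Every pregnant library lay below every cyclic one. The log2 fold change was -2.81 (SE 0.34, adjusted p = 0.00205 in edgeR), a 7.01-fold lower level, and the adjusted p was 0.0104 without pregnant gilt P43. In LE the epithelial markers summed to 2574 to 3150 CPM in cyclic and 2158 to 2424 CPM in pregnant libraries (3 of 6 lower and 1 higher without overlap). The smooth muscle markers summed to 153 to 379 CPM and 92.7 to 114 CPM (1 of 5 lower and 1 higher without overlap). Of the endothelial and of the leukocyte markers, 1 of 6 each was higher without overlap in pregnant LE. Their part in the change of ABCG2 was not tested.

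Among the genes of the sulfate donor PAPS, 1 was called in BV and 1 in S. PAPSS1, which makes PAPS, fell in BV from 71.0, 77.97, 62.6 and 85.7 CPM in cyclic gilts C40, C42, C78 and C128 to 33.6, 48.0, 29.5 and 34.5 CPM in pregnant gilts P39, P41, P43 and P139 (log2 fold change -1.02, SE 0.18, adjusted p = 0.0164 in edgeR). SLC35B3, a Golgi PAPS transporter, fell in S from 64.6 to 77.7 CPM in cyclic to 38.9 to 42.02 CPM in pregnant gilts (log2 fold change -0.74, SE 0.13). Its adjusted p in S was 0.0942 in edgeR, so the call rests on the limit taken from LE, as does that of PAPSS1 in BV. Leaving out single libraries kept the call of PAPSS1 in 2 of 8 fits and that of SLC35B3 in 0 of 8. In BV the epithelial markers (6 of 6 higher without overlap) and smooth muscle markers (717 to 6038 CPM in pregnant and 4984 to 16025 CPM in cyclic libraries) moved beside PAPSS1. In S the smooth muscle markers summed to 181 to 283 CPM in pregnant and 321 to 864 CPM in cyclic libraries (2 of 5 lower without overlap), and 2 of 6 leukocyte markers were higher without overlap. Their part in the changes of PAPSS1 and SLC35B3 was not tested. The quasi-likelihood test called no other gene of the list of sulfotransferases, donor supply and sulfatase activation, which left 1 of 7 called in BV and 1 of 8 in S.

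The genes named from here on by the other tools were chosen after their values were seen. SULT1A3, a phenol sulfotransferase, had 7.38 to 14.6 CPM in cyclic and 17.8 to 25.3 CPM in pregnant LE, and 7.09 to 13.1 CPM in cyclic and 22.9 to 25.8 CPM in pregnant GE. It was not called by the quasi-likelihood test (adjusted p = 0.0272 in LE and 0.0451 in GE) but was by DESeq2 (adjusted p = 0.00211 in LE and 3.76e-04 in GE) and by the robust GLM. S held more SULT1A3 (58.9 to 134 CPM), and BV held 15.6 to 50.2 CPM. In pregnant GE, 2 of 6 fibroblast and 3 of 6 leukocyte markers were higher without overlap, against 0 of 6 and 1 of 6 in LE. The summed fibroblast markers of GE overlapped between the states (3602 to 6529 CPM in pregnant and 2863 to 7494 CPM in cyclic libraries). The part of these markers in the values of SULT1A3 was not tested. Of the same list, the robust GLM alone called PAPSS2 in BV and SULT2A1 in S, whose pregnant and cyclic libraries overlapped. Among the transporters, ABCC1 was called in LE by both other tools (33.8 CPM in cyclic and 112 CPM in pregnant libraries, without overlap), SLCO3A1 in GE by DESeq2 alone and SLC10A6 in GE by the robust GLM alone.

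HSD17B7, which acts both on estrone and in cholesterol synthesis, rose in BV from 6.26, 5.37, 5.07 and 3.68 CPM in cyclic gilts C40, C42, C78 and C128 to 18.9, 13.3, 21.0 and 11.4 CPM in pregnant gilts P39, P41, P43 and P139 (log2 fold change 1.66, SE 0.28, adjusted p = 0.0163 in edgeR). This call missed a false discovery rate of 1% within BV and rests on the limit taken from LE. It was kept in 1 of 8 fits without single libraries. In LE the direction was the opposite, with 132, 150, 233 and 40.7 CPM in the cyclic and 19.6, 63.5, 33.4 and 26.6 CPM in the pregnant libraries (log2 fold change -1.95, SE 0.53). HSD17B7 in LE was not called by the quasi-likelihood test (adjusted p = 0.0456) but was by DESeq2 (adjusted p = 0.00206) and the robust GLM (adjusted p = 1.29e-05), and the groups overlapped, cyclic gilt C128 lying below pregnant gilt P41. The difference of this change between BV and LE was not taken from the joint fit for HSD17B7. GE held between 32.2 and 168 CPM. The epithelial markers of BV moved in the same direction (148 to 270 CPM in pregnant and 2.54 to 45.0 CPM in cyclic libraries), and their part in this change was not tested. The quasi-likelihood test called no gene of 3 further lists in any compartment. These were steroid synthesis from cholesterol (3 to 5 genes tested per compartment), HSD11B1 partners (4) and estrogen hydroxylation and conjugation (1 or 2). The list of other ring reductases had 0 detectable genes, so it was not tested. Some genes of the 3 tested lists were called by the other tools. UGT2B31, a glucuronosyltransferase, had 5.73, 7.24, 10.8 and 0.645 CPM in cyclic GE of gilts C40, C42, C78 and C128 and 150, 41.6 and 58.9 CPM in pregnant GE of gilts P39, P43 and P139 (log2 fold change 3.75, SE 0.72). Its groups did not overlap, and its adjusted p was 0.0490 in the quasi-likelihood test, 2e-05 in DESeq2 and 2.27e-08 in the robust GLM. Both DESeq2 and the robust GLM called it.

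SLC37A4, which carries glucose 6-phosphate into the endoplasmic reticulum where it feeds the cofactor supply of HSD11B1, had 16.7, 6.22, 4.65 and 10.7 CPM in cyclic BV of gilts C40, C42, C78 and C128 and 48.3, 18.3, 91.9 and 62.3 CPM in pregnant BV of gilts P39, P41, P43 and P139 (log2 fold change 2.52, SE 0.51). Its groups did not overlap either, and its adjusted p was 0.0217 in the quasi-likelihood test, 4.07e-05 in DESeq2 and 2.18e-08 in the robust GLM, and DESeq2 and the robust GLM called it. Among the cyclic gilts, SLC37A4 averaged 9.57 CPM (BV), 36.4 CPM (LE) and 215 CPM (GE). Among the pregnant gilts it averaged 55.2 CPM (BV), 56.3 CPM (LE) and 407 CPM (GE), so BV then lay near LE and below GE. The part of the epithelial markers of pregnant BV in the SLC37A4 value there was not tested. STARD3, a cholesterol carrier, was called in BV by the robust GLM alone, with 6.29 CPM in cyclic and 13.5 CPM in pregnant libraries and no overlap. The enzymes that make steroids from cholesterol were near absent, with 27 counts of CYP11A1, 22 of HSD3B1, 0 of CYP19A1 and 13 of CYP19A3 over all 31 libraries.

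The genes most like each member across the 31 libraries were found by Pearson correlation of log2 CPM over the other 13886 genes. These correlations mostly reflect the compartments that the libraries share and are a description. SRD5A1 was nearest to LOC100621701 (r = 0.938), ACOT7 (0.930) and PCDHA11 (0.928), and HSD17B2 to CA8 (0.920), CLIC3 (0.911) and PLA2G4A (0.904). HSD11B1 was nearest to PDE4B (0.931), EBF1 (0.916) and DENND5A (0.915), and HSD17B12 to ATP5I (0.889), ARF1 (0.876) and ATP6V1E1 (0.873). HSD17B4 had KLF8 (0.815), PTK2 (0.813) and SLC35D1 (0.799) as nearest genes, HSD11B2 had PXYLP1 (0.790), SLC7A11 (0.761) and LOC100515857 (0.738), and SULT1E1 had ZYX (0.672), TMBIM1 (0.658) and LOC106505633 (0.657). Among the members themselves, the highest correlation was that of HSD17B2 with SRD5A1 (r = 0.734) and the lowest that of HSD11B1 with HSD17B2 (r = -0.587).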

How the data were processed

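RNA of each laser-captured compartment was amplified and sequenced with single reads. For alignment to Sscrofa11.1 by Hisat2 the authors had trimmed the reads (Trim Galore), and after removal of PCR duplicates (nudup) QuasR counted them by NCBI gene, so the deposited values are whole raw counts. Versions, strand setting and the CPM minimum of the filtered tables are not given in the sources used here. Here, filtered counts were tested per compartment with edgeR 4.0.16 (R 4.3.3, TMM, quasi-likelihood F test, Benjamini-Hochberg), and full counts of 13887 genes in a joint fit with the gilt as a block, since the labels give the same gilt number to its compartments. These 13887 genes were those that passed the authors' filter in at least 1 compartment. DESeq2 1.42.0, edgeR's robust GLM (the method of the paper), RLE, no filter, a 5% false discovery rate and leaving out each library or gilt were alternatives. CPM use TMM over all 31 libraries, and correlations a prior count of 2. Scripts were tested on simulated data. The members and lists were chosen with earlier results of these data known. All members were described, the 3 most correlated genes of members reaching 10 CPM in a group were named, and pathway genes were named where called, those called by other tools than the quasi-likelihood test after their values were seen. Exon lengths are unions of annotated NCBI exons. Pregnant and cyclic gilts are different animals.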

Additional observations from a re-analysis of the deposited data

Results flagged for a closer look

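Among 41 groups of 4 libraries of detectable members, 1 held a library far from the others, where chance flags about 1 in 20. In cyclic GE, HSD11B2 had 26.7 CPM in gilt C128, and the next library had 6.43 CPM. The gap was 0.889 of the range of the group. Without gilt C128, the mean of cyclic GE was 5.20 ± 1.27 CPM (SD, n = 3), against 7.67 ± 2.19 CPM in pregnant GE.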

How the results depend on the processing

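No paired analysis was possible because pregnant and cyclic gilts are different animals, except between compartments of the same gilt. No member was called for pregnancy in LE, BV or S under any alternative, and leaving out each library gave 0 to 0 called members in all 4 compartments. DESeq2 called 1 member in GE, HSD17B4, where the cause was not tested. Over the pairs of compartments, 20 tests of members were called, 18 without the gilt as a block, 19 with RLE and 19 to 20 without single gilts. With only genes in the filtered tables of all 4 compartments the count was 12, since HSD17B2 and SRD5A1 are not among them. The interaction stayed at 0 called in every alternative. Without the block, the differences of HSD11B2 between GE and S (-1.29, adjusted p = 0.0156) and of HSD17B2 between GE and BV (adjusted p = 0.0368) were no longer called in the joint edgeR fit, HSD11B2 turned to 0.041 in GE minus BV and HSD17B4 to 0.014 in LE minus S, and the block changed no other call of a member. In the robust GLM, the fold change of HSD11B2 in GE turned to 0.23 and that of SULT1E1 in BV to -0.20.

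The cause of these turns was not tested, and none of the values that turned was called. Leaving out libraries turned the log2 fold change of HSD17B4 in LE (-0.10 to 0.42) and S (-0.23 to 0.056), HSD17B12 in LE (-0.34 to 0.023), HSD11B2 in GE (-0.74 to 0.52) and SULT1E1 in GE (-0.16 to 0.73) and BV (-0.51 to 0.36). Leaving out gilts turned the level difference of HSD11B1 in BV minus S (-0.0034 to 0.22) and LE minus GE (-0.10 to 0.38), HSD11B2 in GE minus BV (-0.42 to 0.13), HSD17B4 in LE minus S (-0.28 to 0.13) and SULT1E1 in BV minus S (-0.44 to 0.030). Calls of pathway genes were less stable: without single libraries ABCG2 in LE was called in 7 of 8 fits, PAPSS1 in 2 of 8, HSD17B7 in 1 of 8 and SLC35B3 in 0 of 8. Depth limits HSD17B1, STS and HSD17B2 outside LE.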

Other observations

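SULT2A1, a sulfotransferase of hydroxysteroids that was named after its values had been seen, was expressed mainly in GE. It had 140, 132, 175 and 0.215 CPM in cyclic gilts C40, C42, C78 and C128 and 696, 829 and 294 CPM in pregnant gilts P39, P43 and P139. The pregnant libraries lay above all cyclic ones, and the log2 fold change of 2.42 (SE 1.14) had an adjusted p of 0.251 in edgeR's quasi-likelihood test. Cyclic gilt C128, nearly without SULT2A1 in GE, was the library with the highest HSD11B2 there.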
